A study of Mus musculus with 52 samples.

Results

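The ATP-binding cassette (ABC) family was followed through the endothelial transcriptomes and accessible chromatin of brain and pituitary vessels in WT mice and in mice whose endothelial cells (ECs) carried a stabilized form of beta-catenin. Its members were taken by name: every protein-coding gene whose symbol begins with Abca, Abcb, Abcc, Abcd, Abce, Abcf or Abcg followed by a digit, with Abcc9 left out. This gave 49 of the 49585 genes in the RNA tables, of which 21885 are protein-coding, and the rule itself uses names and no measured value. By what their proteins are known to do they were sorted into 7 roles: 12 multidrug efflux pumps, 12 sterol and phospholipid exporters, 10 other subfamily A members, 5 mitochondrial and lysosomal subfamily B members, 4 peroxisomal and lysosomal subfamily D members, 4 members that are not transporters, and the pair Abcc6 and Abcc8.

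ABC proteins bind and hydrolyse ATP, and most of them use it to move a substrate across a membrane. At the blood-brain barrier the pumps P-glycoprotein (Abcb1a in mouse brain vessels), breast cancer resistance protein (Abcg2) and the organic anion pump MRP4 (Abcc4) sit in the luminal membrane and return drugs and toxins to the blood. Vessels of the pituitary and the choroid plexus are permeable and lack this barrier. Beta-catenin carries the canonical Wnt signal to DNA through TCF and LEF proteins, and in CNS vessels that signal maintains barrier character. The design asks what happens to the members when the signal is switched on in ECs that receive little of it.

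The 52 libraries formed 26 groups of 2, from adult male mice. For sorted cells the WT mice carried the Tie2-GFP transgene, driven by a promoter active in ECs and in some blood-derived cells, and the beta-catenin stabilized mice carried Tie2-GFP, Pdgfb-CreER and the Ctnnb1 allele with a floxed exon 3 (BcatEx3fl), which 4-hydroxytamoxifen removes in cells that express the Cre. GFP-positive ECs and GFP-negative parenchyma were sorted from cerebellum and from each pituitary lobe, anterior and posterior. For ribosome-bound RNA, both genotypes carried RiboTag and Pdgfb-CreER, the stabilized mice also BcatEx3fl, and RNA was taken from the cortex and the choroid plexus as input and as the fraction bound to tagged ribosomes. ATAC-seq was run on sorted ECs of the 3 tissues in both genotypes. Pituitaries and choroid plexi were pooled from several animals, so a replicate of these is a pool. The replicates of a group are separate biological samples by the study's methods, and every p-value below rests on the spread between such replicates. With 2 samples a group, that spread was estimated over all groups of the same kind of library together and moderated across genes. Each group is bulk RNA, in which fewer cells of a type and less RNA per cell cannot be told apart.

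Estimated counts per library ran from 17260078 to 33458597 in ECs, from 12157485 to 37529274 in parenchyma and from 6409013 to 21399125 in bound RNA. The endothelial marker list (10 genes) summed to between 1464 and 6507 TPM in the sorted ECs and to at most 28.5 TPM in the parenchyma. The choroid plexus bound RNA also held 11894 to 20075 TPM of 6 epithelial genes, and the WT cortex bound RNA held 3298 and 2306 TPM of 8 microglia and macrophage genes against 85.3 and 93.0 TPM in its input. Nuclear protein-coding genes took 43.8% and 43.6% of TPM in WT and 25.0% and 24.8% in stabilized cortex bound RNA, so there genotype and library composition cannot be told apart. 1 anterior pituitary EC library of the stabilized genotype is called anterior by its title and posterior by another label, and it was taken as anterior. 1 WT cerebellum EC library held 65196 TPM of erythrocyte genes and the other 6655.

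Because the results turn on Abcb1a, Abcg2, Abcc4 and Abcc6, the stretches of DNA at which their chromatin differed between libraries are shown first, 300 bases each, 5′ to 3′ along the strand of the gene, build GRCm38. Capitals mark the words ATCAAAG and TTCAAAG, searched on both strands, which are the core of the site that TCF and LEF proteins bind. Abcb1a has a start in RefSeq at chr5:8567091, which lies 92986 bases upstream of its start in the GENCODE release used for the counts (chr5:8660077). The RefSeq promoter window is chr5:8566841-8567140 (plus strand) and sits in the opposite-strand gene Rundc3b, in no exon of GENCODE. The Abcb1a peak window is chr5:8590466-8590765, 23494 bases downstream of the RefSeq start, in an intron of Rundc3b. The Abcg2 windows are chr6:58623377-58623676 and chr6:58646494-58646793 (plus strand), both intronic in Abcg2 and named by their side of the nearest start. The Abcc4 window is chr14:118566322-118566621 and the Abcc6 window is chr7:46013392-46013691, both on the minus strand and intronic in their gene.
Abcb1a promoter: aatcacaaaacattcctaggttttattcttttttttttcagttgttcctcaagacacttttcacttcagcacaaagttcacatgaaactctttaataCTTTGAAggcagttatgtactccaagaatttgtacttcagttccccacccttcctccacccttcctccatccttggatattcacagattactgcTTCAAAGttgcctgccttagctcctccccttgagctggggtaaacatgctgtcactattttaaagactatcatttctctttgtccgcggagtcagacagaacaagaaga
Abcb1a peak: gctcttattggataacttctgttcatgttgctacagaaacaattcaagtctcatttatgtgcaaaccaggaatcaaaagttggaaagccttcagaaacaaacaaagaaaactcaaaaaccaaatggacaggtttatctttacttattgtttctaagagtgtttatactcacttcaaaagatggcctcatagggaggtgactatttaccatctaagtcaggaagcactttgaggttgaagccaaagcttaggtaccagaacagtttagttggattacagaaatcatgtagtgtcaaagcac
Abcg2 peak, upstream: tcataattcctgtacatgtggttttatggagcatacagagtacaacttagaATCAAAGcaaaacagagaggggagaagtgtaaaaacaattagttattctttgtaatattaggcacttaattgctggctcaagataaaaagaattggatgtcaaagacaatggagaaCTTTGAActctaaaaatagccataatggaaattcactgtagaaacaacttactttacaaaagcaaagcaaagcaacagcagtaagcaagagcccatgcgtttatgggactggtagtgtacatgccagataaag
Abcg2 peak, downstream: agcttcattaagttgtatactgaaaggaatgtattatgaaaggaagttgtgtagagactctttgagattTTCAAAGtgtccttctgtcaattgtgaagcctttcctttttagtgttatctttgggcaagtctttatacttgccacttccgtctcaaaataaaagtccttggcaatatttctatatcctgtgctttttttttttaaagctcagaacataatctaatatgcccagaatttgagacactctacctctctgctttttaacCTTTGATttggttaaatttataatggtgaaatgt
Abcc4 peak: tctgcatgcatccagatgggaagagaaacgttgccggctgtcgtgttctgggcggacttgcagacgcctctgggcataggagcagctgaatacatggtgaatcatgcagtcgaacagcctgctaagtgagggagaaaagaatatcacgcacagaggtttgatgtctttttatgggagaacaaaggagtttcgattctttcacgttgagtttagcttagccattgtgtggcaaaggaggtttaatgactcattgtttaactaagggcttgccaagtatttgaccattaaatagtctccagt
Abcc6 peak: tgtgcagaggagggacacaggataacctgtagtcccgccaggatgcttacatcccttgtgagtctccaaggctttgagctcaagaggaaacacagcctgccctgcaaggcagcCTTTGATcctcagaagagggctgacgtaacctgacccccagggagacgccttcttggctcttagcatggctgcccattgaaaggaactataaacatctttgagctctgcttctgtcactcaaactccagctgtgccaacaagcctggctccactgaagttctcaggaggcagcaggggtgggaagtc

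The Abcb1a promoter window held TTCAAAG on each strand, each Abcg2 window held both words, the Abcc6 window held ATCAAAG on the strand opposite to the one printed, and the Abcb1a peak window and the Abcc4 window shown held neither. The windows of the other Abcc4 peaks that mark WT cerebellum ECs, not printed, each held 1 word. Of the 32851 RefSeq promoter windows of all genes, 8.65% held at least 1 of the words. Of the 44 windows of the 37 members that could be matched, 3 did, those of Abcb1a, Abcb5 and Abcc5.

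In WT ECs the family was carried by a few members. By TPM of coding transcripts, which is per length and so can be compared between genes, 35 of the 49 members reached a group mean of 1 TPM in at least 1 of the 10 EC and bound groups. The other 14 did not, among them Abcb1b, the other mouse P-glycoprotein, and 5 members (Abca14, Abca15, Abca16, Abcb11, the liver bile salt pump, and Abcg8, a half-transporter for sterols) were listed at 0 in every such library. Abcg2 had the highest mean of the family on this measure in each WT group, with 336 and 240 TPM in the cerebellum, 398 and 505 in the anterior pituitary, 339 and 235 in the posterior pituitary, 158 and 69.4 in cortex bound RNA and 29.9 and 21.9 in choroid plexus bound RNA. In both kinds of bound RNA its libraries overlapped those of Abcf1, at 85.9 and 132 and at 30.6 and 20.7 TPM, so there the order of the leading members is not settled. The same measure placed full-length Abcb1a at 205 and 247 TPM in the cerebellum, against 8.38 and 13.7 in the anterior pituitary, 19.8 and 21.5 in the posterior pituitary, 65.1 and 27.7 in cortex bound RNA and 6.13 and 9.47 in choroid plexus bound RNA. Among the 3 sorted tissues Abcg2 was thus high on both sides of the barrier divide, and Abcb1a was high in the cerebellum alone. In bound RNA both cortex libraries lay above both choroid plexus libraries for each of these pumps. When all transcripts of a gene were summed, Abcb1a came first in the WT cerebellum at 1299 and 924 TPM, and there the shorter transcripts of this gene weigh more in TPM than in counts: the full-length transcript took 63.1% and 99.5% of its counts in the WT cerebellum but 15.8% and 26.7% of its TPM.

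**Figure D1:**
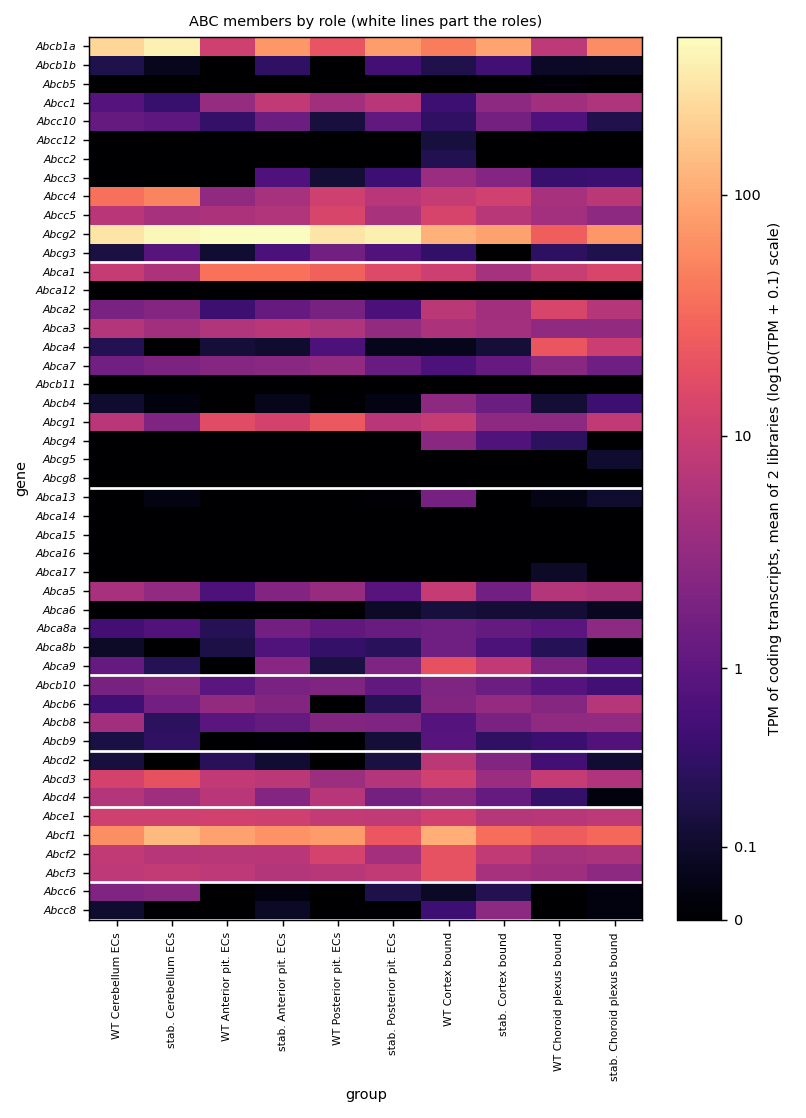
Mean TPM of coding transcripts (colour, log10(TPM + 0.1) scale, 2 libraries a group) for the members shown (rows, in 7 roles parted by white lines) in the 10 EC and bound groups (columns). Abcg2 has the highest mean in every column but stabilized cortex, where Abcb1a does, Abcb1a is darkest in the WT anterior pituitary and WT choroid plexus, and 14 members stay below 1 TPM.

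The leading members of the other roles are given here in TPM summed over all transcripts, noncoding ones included. Abcf1, a ribosome-associated factor of translation with no membrane part, stood at 118 and 119 TPM in WT cerebellum ECs, 164 and 161 in the anterior pituitary and 200 and 90.8 in the posterior pituitary. It reached 160 and 192 TPM in cortex bound and 65.5 and 54.2 in choroid plexus bound RNA. Abcd3, which brings fatty acids into peroxisomes, led its role in all 5 WT groups at 10.7 to 31.3 TPM. Among the sterol and phospholipid exporters, Abca1, which loads cholesterol onto apolipoproteins, led in the anterior pituitary (31.7 and 42.6 TPM) and the posterior pituitary (32.6 and 33.2). Abca2, a lysosomal lipid transporter best known from oligodendrocytes, led in the cerebellum (15.95 and 11.3), in cortex bound RNA (34.8 and 47.9) and in choroid plexus bound RNA (56.2 and 47.2). Of the mitochondrial and lysosomal subfamily B members, Abcb9, a lysosomal peptide transporter, had the highest mean in the posterior pituitary (1.83 and 10.2) and cortex bound RNA (7.09 and 6.01), and mitochondrial Abcb8 in choroid plexus bound RNA (6.27 and 3.04). Most of the Abcb9 TPM came from noncoding transcripts: its coding ones were at 0 in the posterior pituitary and at 0.469 and 1.23 in cortex bound RNA. Abca5 led the other subfamily A members, with at most 8.85 TPM, except in cortex bound RNA, where Abca9 stood at 24.9 and 14.4. Of the pair Abcc6, the transporter through which liver cells release ATP, and Abcc8, the sulphonylurea receptor, neither passed 1 TPM in both libraries of a WT EC or bound group except Abcc6 in the cerebellum (2.13 and 6.77).

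The first comparison asked how barrier ECs of the cerebellum differ from permeable ECs. The WT pituitary ECs also held RNA of 7 endocrine genes, at 6784 and 4375 TPM in the anterior and 3367 and 478 in the posterior lobe. WT cerebellum ECs held 36.2 and 32.1 TPM of them, and the part of this RNA in the differences was not tested. Here and below, normalised CPM are read counts relative to the library's total after TMM scaling, sorted and bound libraries being scaled apart, and a member was called when its adjusted p in edgeR's quasi-likelihood test, corrected over all genes tested, was under 0.05 and its change at least 2-fold. Abcb1a stood at 2804 and 2236 CPM in the 2 WT cerebellum libraries, 109.5 and 176 in the anterior pituitary and 235 and 234 in the posterior pituitary. It was higher in the cerebellum by 4.14 on the log2 scale over the anterior (SE 0.38, edgeR adjusted p = 3.0e-05) and by 3.43 over the posterior pituitary (SE 0.37, edgeR adjusted p = 0.000143). With transcript lengths entered as an offset, the first of these kept its direction at 2.70 but not its call (edgeR adjusted p = 0.0609). Abcc4 stood at 455 and 437 CPM in the cerebellum, 51.0 and 32.8 in the anterior and 120.4 and 178 in the posterior pituitary, and all 3 groups were apart. It was higher in the cerebellum by 3.41 (SE 0.33, edgeR adjusted p = 4.3e-05) and by 1.58 (SE 0.31, edgeR adjusted p = 0.010), and lower in the anterior than in the posterior pituitary by a log2 fold change of -1.83 (SE 0.31, edgeR adjusted p = 0.0142), a call lost without anterior pituitary replicate 2 and with the length offset.

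Abcc6 had 590 and 857 counts in the WT cerebellum ECs (16.9 and 33.1 CPM) and 0 in all 4 WT pituitary EC libraries. Against a floor of 3 counts per library, and on the mean of the higher group as in each such bound, this is at least 271-fold higher than in the anterior and at least 181-fold higher than in the posterior pituitary (edgeR adjusted p = 0.000727 and 0.00109). On the lower of both cerebellum libraries the bounds are 183-fold and 122-fold. Abca9, a lipid transporter of subfamily A, had 10.8 and 13.7 CPM in the cerebellum and 1 count in the anterior pituitary, a ratio of 797 with a 95% counting interval from 143 upward to 3.15e+04 (edgeR adjusted p = 0.0185), which lost its call without the anterior pituitary replicate 1. Beside Abca9 and Abcc6, all 8 mural cell markers were at 1 TPM or more in the WT cerebellum ECs, where they summed to 968 and 819 TPM, against 172 and 196 in the anterior and 144 and 72.6 in the posterior pituitary with 3 of 8 at that level. Their part in these differences was not tested.

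Abca1 went the other way: it stood at 115 and 217 CPM in the cerebellum, 589.7 and 716 in the anterior and 417 and 425 in the posterior pituitary. The difference was a log2 fold change of -1.98 (SE 0.31, edgeR adjusted p = 0.00156) and -1.34 (SE 0.30, edgeR adjusted p = 0.0226), the latter lost without cerebellum replicate 1, whose log2 fold change is then -0.97, and with the length offset (edgeR adjusted p = 0.0794). Abca2 was higher in the cerebellum than in the anterior pituitary (37.2 and 52.7 against 16.8 and 6.76 CPM, log2 fold change 1.93, SE 0.49, edgeR adjusted p = 0.0381) and lost this call without replicate 2 of either group and with the length offset (edgeR adjusted p = 0.287). The 5 oligodendrocyte markers summed to 49.2 and 37.2 TPM in these cerebellum ECs (3 of 5 at 1 TPM in both libraries) and to 9.59 and 22.2 in the anterior ones (1 of 5), and their part was not tested. Abcb6, a mitochondrial porphyrin transporter, had 0 counts in both WT posterior pituitary EC libraries. It was at least 78.6-fold higher in the cerebellum (14.7 and 7.06 CPM, edgeR adjusted p = 0.00928) and at least 33.2-fold higher in the anterior pituitary (0.991 and 8.20 CPM, edgeR adjusted p = 0.0488). The latter was lost without anterior replicate 2 and without either posterior replicate, with the replicate block (edgeR adjusted p = 0.0539) and with the length offset. On the lower library alone these bounds are 51.0-fold and 7.17-fold.

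Against the anterior pituitary, 5 of the 36 members tested were thus higher in the cerebellum, where 3% of all genes were, and 1 was lower (2.26% of all genes). Against the posterior pituitary the counts were 4 higher (2.3%) and 1 lower (2.1%), and between the pituitary lobes 1 higher in the anterior (0.34%) and 1 lower (0.653%). The median log2 fold change of the members was 0.14, 0.17 and -0.44 in the 3 comparisons, against 0.00 over all genes in each. These comparisons share their WT libraries. Abcg2 was called in none: it stood at 693 and 564 CPM in the cerebellum, 869.9 and 935 in the anterior and 440.1 and 535 in the posterior pituitary, and its log2 fold changes of -0.52 (SE 0.25, edgeR adjusted p = 0.344), 0.37 (SE 0.25, 0.513) and 0.89 (SE 0.25, 0.156) did not pass. Abcc1, a pump for glutathione conjugates, stood at 5.89 and 5.79 CPM in the cerebellum against 13.3 to 29.8 in the pituitary lobes (edgeR adjusted p = 0.294 and 0.175), and Abcc5, a pump for cyclic nucleotides, ranged from 16.4 to 37.7 CPM with groups that overlapped. Abcb1b, which shares 11.9% of the 75-base words of Abcb1a so that reads may be split between them, stood at 2.80 and 2.62 CPM in the cerebellum, 0 and 6.19 in the anterior and 7.05 and 18.1 in the posterior pituitary, and was called in no comparison.

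**Figure D2:**
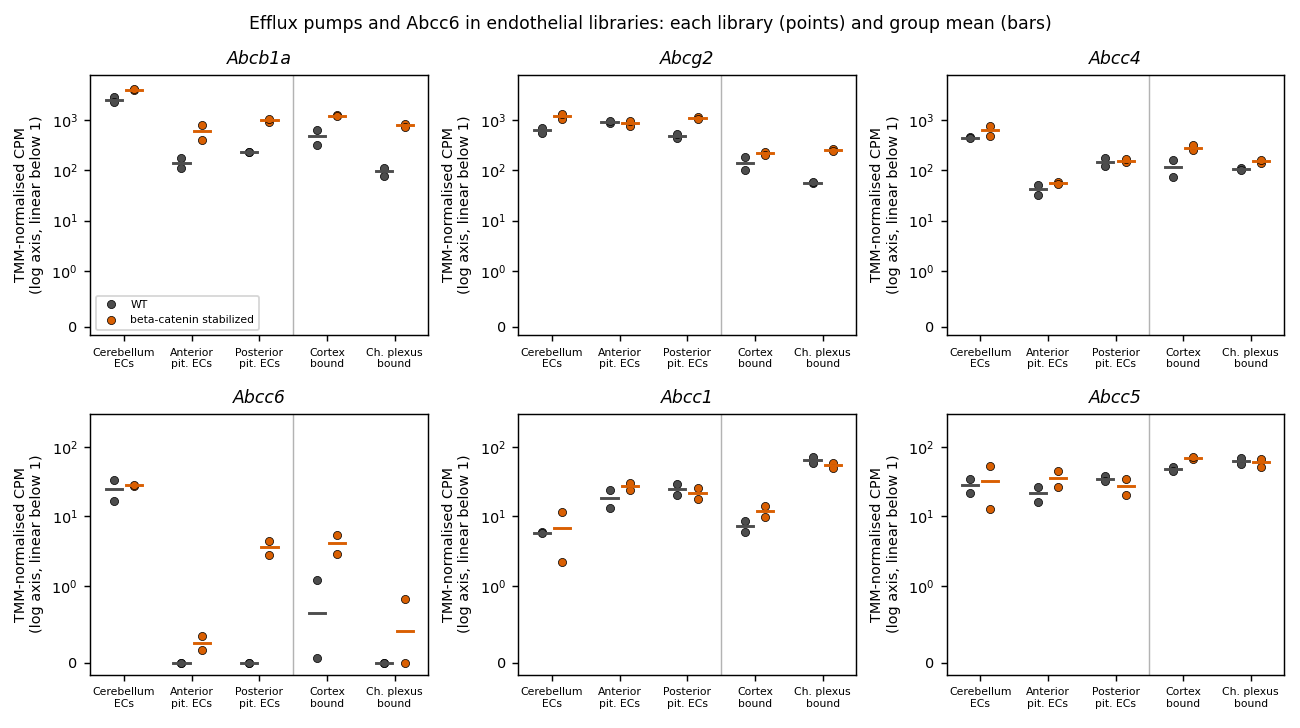
Normalised CPM (log axis, linear below 1) of 6 members in each EC and bound library (points) with the mean of 2 (bars), WT in grey and beta-catenin stabilized in orange. The grey line parts sorted ECs from bound RNA, which were scaled apart. Abcb1a rises from 109.5 and 176 to 406 and 805 CPM in the anterior and from 235 and 234 to 929.8 and 1045 in the posterior pituitary.

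The central comparison set beta-catenin stabilized against WT ECs of the same tissue. In the anterior pituitary Abcb1a stood at 109.5 and 176 CPM in the WT and 406 and 805 in the stabilized libraries, a log2 fold change of 2.08 (SE 0.35, edgeR adjusted p = 0.0211). It was called alone among 36 members, where 0.441% of all genes were higher and 0.0167% lower. DESeq2 called 4 (Abca9, Abcb1a, Abcc3 and Abcc6), edgeR without a filter on low counts 3 and edgeR with the replicate block 2. Over all genes DESeq2 called 499 higher and 92 lower of 49585. The fit without a filter called 347 and 96 of 25311, and the replicate block 107 and 10 of 17915. In the posterior pituitary it stood at 235 and 234 CPM in the WT and 929.8 and 1045 in the stabilized libraries, again with a log2 fold change of 2.08 (SE 0.35, edgeR adjusted p = 0.0116). In neither lobe did the groups overlap, and in neither did the stabilized level reach that of the WT cerebellum. On the full-length transcript alone the rise was from 8.38 and 13.7 to 58.5 and 86.7 TPM in the anterior and from 19.8 and 21.5 to 75.5 and 85.7 TPM in the posterior pituitary.

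The anterior call was lost without WT replicate 1 (log2 fold change 1.79, edgeR adjusted p = 0.0927) and the posterior call held without any 1 library. With transcript lengths as an offset the values were 0.74 in the anterior (edgeR adjusted p = 0.862) and 3.25 in the posterior pituitary (edgeR adjusted p = 0.0582), so that neither was called.

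Abcg2 parted the lobes by its calls. In the posterior pituitary it stood at 440.1 and 535 CPM in the WT and 1142 and 1063 in the stabilized ECs, a log2 fold change of 1.18 (SE 0.25, edgeR adjusted p = 0.0370) that was not called when either stabilized replicate was left out. In the anterior pituitary the stabilized libraries (773 and 958 CPM) overlapped the WT (869.9 and 935), with a log2 fold change of -0.06 (SE 0.25, edgeR adjusted p = 1). The difference between the responses of the lobes was 1.24 (SE 0.35), with an edgeR adjusted p of 0.291 and an unadjusted p of 0.00425, and so was not shown. No member passed that test of posterior minus anterior response, where 0.0558% of all genes were higher and 0.0726% lower. Of 36 members tested, 4 were under an unadjusted edgeR p of 0.05, as were 1628 of 17915 genes. DESeq2 called 2 members, and of 49585 genes it called 272 higher and 318 lower.

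Abcc6 had 0 counts in both WT posterior pituitary EC libraries and 55 and 93 counts in the stabilized libraries (2.77 and 4.39 CPM). It was at least 25.9-fold higher (edgeR adjusted p = 0.0139), yet at 0.159 and 0.253 TPM it remained far below its level in the WT cerebellum. In the anterior pituitary it went from 0 counts to 10 and 4 (edgeR adjusted p = 0.180). Abcb6 went from 0 counts in both WT posterior libraries to 7.25 and 2.26 CPM in the stabilized ones, at least 34.4-fold higher (edgeR adjusted p = 0.0364), and lost the call without WT replicate 2 or stabilized replicate 1. On the lower stabilized library the bound is 16.4-fold. With these, 4 of 36 members rose in the posterior pituitary, where 1.25% of all genes did, and none fell (0.541% of all genes). With the length offset none of the 4 was called. Library composition moved with genotype in these ECs: nuclear protein-coding genes took 56.1% and 41.4% of TPM in the WT and 29.7% and 28.1% in the stabilized libraries, and the top 10 genes 31.0% and 48.1% against 62.0% and 63.5%, so genotype and composition cannot be told apart here.

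Abca9 and Abcc3, a pump for conjugated bile acids, stood near 0 in WT anterior pituitary ECs and at 21.4 and 28.8 and at 8.22 and 11.2 CPM in the stabilized libraries, without passing the test (edgeR adjusted p = 0.0663 and 0.347). In the posterior pituitary Abca9 went from 1.59 and 1.40 to 39.5 and 23.2 CPM (edgeR adjusted p = 0.220). The 8 microglia and macrophage markers moved in the same libraries, from 27.1 and 20.4 TPM to 135 and 238 in the anterior and from 58.0 and 36.9 to 265 and 197 in the posterior pituitary, with 1 of 8 genes at 1 TPM in both WT libraries of each lobe and 7 of 8 in the stabilized ones. Their part in the levels of Abca9 and Abcc3 was not tested. In the posterior pituitary ECs the 10 endothelial genes also differed, at 6507 and 5541 TPM in the WT and 1482 and 1464 in the stabilized libraries, and so did 6 genes of choroid plexus epithelium (40.3 and 24.2 against 241 and 293 TPM, 2 of 6 at 1 TPM in both stabilized libraries). In the anterior pituitary ECs the same epithelial genes went from 5.76 and 1.90 to 50.1 and 80.8 TPM (0 and 2 of 6). Their part in the calls of either lobe was not tested. Abcc4 did not follow Abcb1a: its log2 fold changes were 0.43 (SE 0.31, edgeR adjusted p = 0.767) in the anterior and 0.06 (SE 0.30, edgeR adjusted p = 0.992) in the posterior pituitary.

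In cerebellum ECs, where the signal is already active in WT, no member was called by edgeR, against 0.067% of all genes higher and 0.581% lower. Of 36 members tested, 6 were under an unadjusted edgeR p of 0.05, as were 1751 of 17915 genes. DESeq2 called 2 members, and of 49585 genes it called 166 higher and 815 lower. Abcb1a stood at 2804 and 2236 CPM in the WT and 4007 and 4050 in the stabilized ECs (log2 fold change 0.68, SE 0.34, edgeR adjusted p = 0.530), and Abcg2 at 693 and 564 against 1068 and 1295 (0.91, SE 0.25, edgeR adjusted p = 0.196). Both stabilized libraries lay above both WT libraries for each pump. Abcg1, a cholesterol exporter, stood at 42.2 and 74.9 CPM in the WT and 25.7 and 9.92 in the stabilized ECs (log2 fold change -1.72, SE 0.43, edgeR adjusted p = 0.123). The median log2 fold change of the members was 0.24 in the cerebellum, 0.54 in the anterior and 0.12 in the posterior pituitary, against -0.08, 0.06 and 0.01 over all genes.

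**Figure D3:**
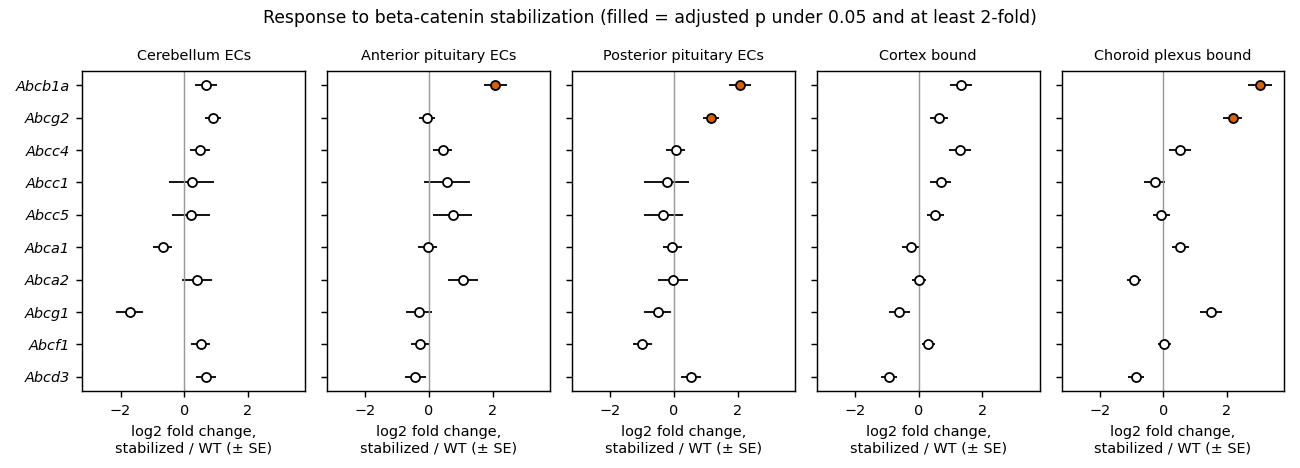
Log2 fold change of stabilized over WT (points, bars ± SE of the edgeR fit) for 10 members in 3 sorted EC types and 2 kinds of bound RNA. Filled points were called. Abcb1a is filled in both pituitary lobes and in choroid plexus bound RNA, and Abcg2 in the posterior pituitary and choroid plexus.

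Ribosome-bound RNA gave the comparison in the permeable vessels of the choroid plexus and in the barrier vessels of the cortex. In choroid plexus bound RNA Abcb1a stood at 77.5 and 113 CPM in the WT and 838 and 732 in the stabilized libraries, a log2 fold change of 3.04 (SE 0.38, edgeR adjusted p = 0.00827). Abcg2 rose from 55.6 and 58.1 to 270 and 243 CPM, a log2 fold change of 2.17 (SE 0.30, edgeR adjusted p = 0.0121). Both calls held without any 1 library and were lost with the length offset, at 4.89 and 2.19 (edgeR adjusted p = 0.0868 and 0.0965). These were the members called by edgeR among 40, where 0.656% of all genes were higher and 0.197% lower. DESeq2 called 7 (with Abca5, Abca8b, Abcb4, Abcd2 and Abcg1) and edgeR without a filter on low counts 6 (with Abca8b, Abca9, Abcd2 and Abcg1). Over all genes DESeq2 called 390 higher and 273 lower of 49585, and the fit without a filter 461 and 413 of 26355. The WT choroid plexus input, which is mostly epithelium, held Abcb1a at 4.40 and 7.35 CPM and Abcg2 at 11.9 and 12.5. The epithelial genes in the bound RNA summed to 19093 and 20075 TPM in the WT and 13499 and 11894 in the stabilized libraries, and the endothelial list to 368 and 496 against 703 and 542 TPM. Their part in the rise was not tested.

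In cortex bound RNA 1 member rose and 1 fell of 40 (3.65% and 2.67% of all genes). The count of 2 was 5 by DESeq2 and 6 without a filter on low counts, and it rose without WT replicate 1 and fell without stabilized replicate 1. Over all genes DESeq2 called 1070 higher and 874 lower of 49585, and the fit without a filter 1138 and 999 of 26355. Abca7, a phospholipid exporter, rose from 7.21 and 7.75 to 31.9 and 20.6 CPM (log2 fold change 1.81, SE 0.41, edgeR adjusted p = 0.0343), and Abca5 fell from 73.0 and 60.5 to 27.5 and 26.1 (-1.32, SE 0.27, edgeR adjusted p = 0.0223). Abca5 lost the call without either stabilized replicate, and Abca7 without either WT replicate, without stabilized replicate 1 and with the replicate number as a block. With the length offset neither was called (edgeR adjusted p = 0.0665 and 0.0841). Abcb1a (646 and 315 CPM in the WT, 1250 and 1175 in the stabilized libraries) and Abcc4 (158 and 72.2 against 250 and 313) missed the threshold, with log2 fold changes of 1.34 and 1.296 (edgeR adjusted p = 0.0550 and 0.0560). Markers of neurons moved with these groups, from 1146 and 1379 TPM in the WT to 404 and 330 in the stabilized bound RNA, as did those of microglia (3298 and 2306 to 927 and 812) and oligodendrocytes (1131 and 1183 to 163 and 178). Their part was not tested.

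The choroid plexus response minus the cortex response was 1.70 for Abcb1a (SE 0.49, edgeR adjusted p = 0.122), 1.55 for Abcg2 (SE 0.40, edgeR adjusted p = 0.0919) and 2.102 for Abcg1 (SE 0.47, edgeR adjusted p = 0.0562). No member passed by edgeR, where 0.864% of all genes were higher and 1.28% lower. Of 40 members tested, 8 were under an unadjusted edgeR p of 0.05, as were 2946 of 16775 genes. DESeq2 called 5 members, and of 49585 genes it called 493 higher and 625 lower. The median log2 fold change of the members was -0.03 in cortex and 0.02 in choroid plexus bound RNA, against 0.00 and -0.09 over all genes.

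In WT bound RNA the cortex and the choroid plexus differed in 10 of 40 members, 6 higher in the cortex (15.8% of all genes) and 4 lower (13.9%). Among the pumps Abcb1a was higher in the cortex (646 and 315 against 77.5 and 113 CPM, log2 fold change 2.33, SE 0.36, edgeR adjusted p = 0.00133), as were Abcg2 (1.32, SE 0.29, edgeR adjusted p = 0.00771) and Abcc3 (39.9 and 40.3 against 7.45 and 8.70 CPM). Abcg2 was not called without cortex replicate 1 or without choroid plexus replicate 1, at log2 fold changes down to 0.85. With the length offset Abcg2, Abcc3 and Abcd2 were not called, at 0.80, 1.39 and 0.59 (edgeR adjusted p = 0.180, 0.240 and 0.484). Abcc1 was lower in the cortex (5.995 and 8.72 against 72.3 and 58.9 CPM, -3.15, SE 0.36, edgeR adjusted p = 0.000239). Abca4, the retinoid lipid flippase of photoreceptors, had 0 and 0.872 CPM in the cortex against 559 and 528 in the choroid plexus (fitted log2 fold change -10.12, SE 0.91, edgeR adjusted p = 8.1e-05). That size rests on cortex replicate 2: the value lay at -15.19 without it, with the cortex then at 0 counts, and at -9.25 without replicate 1. Abca7 and Abca2 were also lower in the cortex (-2.83 and -1.52), and Abcb4, a phosphatidylcholine flippase, Abcd2, a peroxisomal fatty acid transporter, and Abca9 were higher (4.02, 2.93 and 2.57), Abcb4 lying between 3.13 without choroid plexus replicate 1 and 5.70 without replicate 2. The median of the members was 0.28 against 0.01 over all genes. The choroid plexus bound RNA holds epithelial RNA and the cortex bound RNA glial and neuronal RNA at the levels given above, and their part in these values was not tested.

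Which members belong to ECs and not to their surroundings was asked by setting WT ECs against parenchyma, and bound RNA against input. Abcg2 was higher in ECs of all 3 tissues: 679 and 538 against 7.12 and 14.1 CPM in the cerebellum, 839 and 907 against 17.8 and 13.7 in the anterior and 423 and 516 against 12.1 and 4.82 in the posterior pituitary. Its log2 fold changes were 5.84, 5.79 and 5.79 (SE 0.80 each, edgeR adjusted p at most 8.9e-05). With 1 library left out they lay between 5.49 and 6.53, between 5.76 and 6.13 and between 5.40 and 6.75. Abcb1a was higher by 7.36, 4.54 and 9.31 (edgeR adjusted p = 3.5e-05, 0.000922 and 5.8e-06), with 18.7 and 11.1, 4.31 and 7.59 and 0.0275 and 0.757 CPM in the parenchyma. The posterior value was 8.36 without parenchyma replicate 1 and 12.90 without replicate 2, and stayed called. Abcc4 was higher in the ECs of the cerebellum (4.62, SE 0.74, edgeR adjusted p = 0.000363) and the posterior pituitary (4.03, SE 0.72, edgeR adjusted p = 0.000630). Abca1 was higher in those of the anterior (2.88, SE 0.46, edgeR adjusted p = 0.000348) and the posterior pituitary (4.02, SE 0.49, edgeR adjusted p = 1.5e-05). Without posterior parenchyma replicate 1 these posterior values were 5.86 for Abcc4 and 5.07 for Abca1, and both stayed called. Abcc6 stood at 16.6 and 31.6 CPM in cerebellum ECs against 2 counts in the parenchyma, a ratio of 748 with a 95% counting interval of 207 to 6.17e+03 (edgeR adjusted p = 0.0113), lost without parenchyma replicate 2 and with each preparation as a block (edgeR adjusted p = 0.0711). The 8 mural markers were also higher in these ECs, at 968 and 819 TPM against 231 and 124 in the parenchyma. They were higher in the ECs of both pituitary lobes as well. The 2 cerebellum parenchyma libraries stood apart. They held 1.81 and 3643 TPM of choroid plexus epithelial genes, 19698 and 206 of erythrocyte genes and 2042 and 695 of astrocyte genes. The part of these cells in the values was not tested.

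The members called lower in ECs are given next. Abca2 was lower in all 3 tissues, by log2 fold changes of -3.04, -3.29 and -2.43 (edgeR adjusted p at most 0.00097), and so was Abca5, by -1.88, -3.26 and -2.95 (edgeR adjusted p at most 0.0113), the cerebellum value losing its call without replicate 2 of either fraction. With the length offset the anterior call of Abca2 and the cerebellum call of Abca5 were lost (edgeR adjusted p = 0.0998 and 0.263). In the cerebellum Abcd3 was lower too (59.1 and 75.8 against 330 and 251 CPM, -2.11, edgeR adjusted p = 0.00037). In both pituitary lobes Abca8b and Abca9, lipid transporters of one gene cluster, were lower in ECs: Abca8b by -4.62 and -4.64, calls lost without EC replicate 2 of the lobe and, in the anterior, also without parenchyma replicate 2, and Abca9 at 0 and 0.0305 against 13.7 and 10.7 CPM in the anterior and at 1.53 and 1.35 against 24.3 and 16.6 in the posterior pituitary. With 1 library left out, Abca8b lay between -5.71 and -3.83 in the anterior and between -7.15 and -3.75 in the posterior pituitary. The ratio for Abca9 in the anterior lobe was 819 with a 95% counting interval from 147 to 3.23e+04. In the posterior pituitary Abcb6 and Abcg4 had 0 counts in ECs against 21.9 and 5.72 and against 26.1 and 0.757 CPM, and were at least 104-fold and 101-fold lower. Both bounds rest mainly on parenchyma replicate 1: on replicate 2 alone they are 43.0-fold and 5.69-fold. Abcg4 and Abca9 in the posterior pituitary each lost the call without any of 3 libraries, among them EC replicate 2, and Abcg4 also with each preparation as a block (edgeR adjusted p = 0.0549). The parenchyma of the posterior pituitary held 54456 and 56525 TPM of 7 endocrine genes, of which 4 were at 1 TPM in both libraries. Oligodendrocyte markers summed to 1321 and 3311 TPM in WT cerebellum parenchyma against 49.2 and 37.2 in ECs. Astrocyte markers there summed to 2042 and 695 against 29.9 and 13.8. Fibroblast markers stood at 150 and 185 TPM in anterior parenchyma against 16.3 and 23.8 in ECs. In the posterior pituitary they stood at 149 and 119 against 34.3 and 17.2. The part of these cell types in the calls was not tested.

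In numbers, 4 of 39 members tested were higher in cerebellum ECs (4.46% of all genes) and 3 lower (6.89%), 3 were higher in anterior pituitary ECs (5.46%) and 4 lower (5.87%), and 4 were higher in posterior pituitary ECs (7.07%) and 7 lower (7.45%). By role, the efflux pumps gave 3, 2 and 3 members higher and none lower of 10 tested, and the other subfamily A members gave none higher and 1, 3 and 3 lower of 6. The median log2 fold change of the members was -0.86, -0.40 and 0.00, against -0.12, -0.03 and 0.00 over all genes.

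In bound over input RNA of the cortex, 8 of 41 members were higher (7.46% of all genes) and 1 lower (4.18%). Abcb1a was higher by 5.13 (529.9 and 282 against 14.1 and 9.09 CPM, SE 0.39, edgeR adjusted p = 2.1e-06), Abcc4 by 3.87 (SE 0.29, edgeR adjusted p = 1.9e-06) and Abcg2 by 3.22 (SE 0.27, edgeR adjusted p = 4.4e-06). With 1 library left out these lay between 4.81 and 5.88, between 3.50 and 4.66 and between 3.05 and 3.91. Abcc3 (4.12), Abca9 (3.66) and Abca1 (1.42) were higher as well. Their values with 1 library left out lay between 4.01 and 4.95, between 3.55 and 4.29 and between 1.32 and 2.05. Abca13 had 0 counts in the input and 6.03 and 1.10 CPM in the bound RNA, at least 23.8-fold higher (edgeR adjusted p = 0.00941), lost without either input replicate and with the length offset. On bound replicate 2 alone the bound is 7.38-fold. The microglia and macrophage list was 3298 and 2306 TPM in the same bound RNA against 85.3 and 93.0 in the input, and its part in the values of Abca9, Abcc3, Abca1 and Abca13 was not tested. Abca2 was lower by a log2 fold change of -1.09 (SE 0.16), but the median of all genes in this comparison was -0.33. Abca2 lost the call without any 1 of the 4 libraries, with RLE scaling, with DESeq2, without a filter on low counts and with the length offset.

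In the choroid plexus, 4 of 41 members were higher in bound RNA (8.67% of all genes) and 2 lower (6.64%). Abcb1a was higher by 3.83 (67.6 and 101 against 4.40 and 7.35 CPM, SE 0.39, edgeR adjusted p = 2.9e-05), Abcc3 by 3.33 (SE 0.53) and Abcg2 by 2.04 (SE 0.27, edgeR adjusted p = 0.000212). Abcb9 (-1.38) and Abcb8 (-1.14) were lower, and each lost the call without any of 3 libraries. Abcb8 lost it also with each preparation as a block (edgeR adjusted p = 0.0552), and Abcb9 with the length offset. With the length offset Abcb1a fell to 0.92 and was not called. The microglia and macrophage list stood at 61.2 and 77.2 TPM in this bound RNA (8 of 8 genes at 1 TPM in both libraries) against 8.53 and 9.93 in the input (2 of 8), and its part in these values was not tested. The median of the members was -0.42 in the cortex and 0.00 in the choroid plexus, against -0.33 and 0.01 over all genes.

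**Figure D4:**
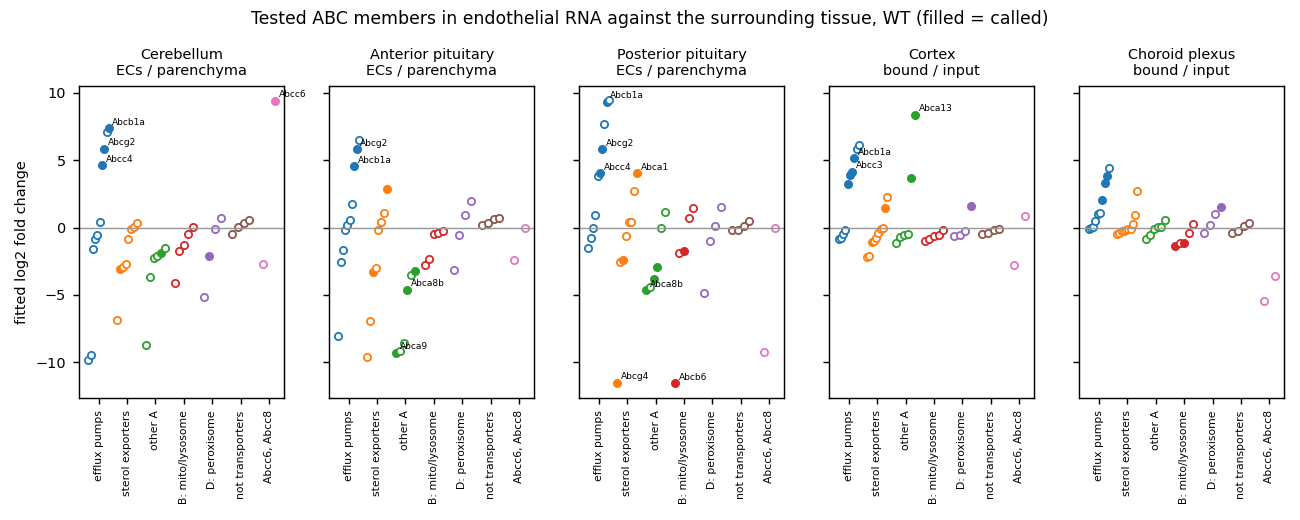
Fitted log2 fold change of each tested member (points, filled where called, coloured by role along the x axis) in WT ECs over parenchyma and in bound over input RNA. Filled points above 4 or below -4 are named. The pumps Abcb1a and Abcg2 are filled and above 0 in all 5 panels, and fitted values of members at 0 in a group are no bound.

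ATAC-seq peaks show where chromatin was open. Peaks were kept where the enrichment exceeded 2-fold and −log10 q exceeded 2. A peak was called gained when both stabilized libraries had it and neither WT library did, counting an overlap of 1 base, and it was given to a member when it touched the gene body or the 10 kb around it. At members, 15 of the 89 peaks of stabilized cerebellum ECs were gained (17.9% of all such peaks), 8 of 117 in the anterior pituitary (7.67%) and 33 of 83 in the posterior pituitary (28.5%). The share in the posterior pituitary was above that of all its peaks, and the difference was not tested. These counts move with the libraries and the threshold. With 1 library left out they were 19 to 24, 10 to 23 and 34 to 74. The highest pituitary counts were those without WT anterior replicate 2 and without stabilized posterior replicate 1. Leaving out a library removes a condition of a gain and so works toward higher counts. At a 4-fold enrichment and a −log10 q of 5 the counts were 5, 3 and 16. The shares of all peaks under these settings were not counted. Peaks in both WT libraries and neither stabilized one were 0 of 68 in the cerebellum (3.30%), 4 of 97 in the anterior pituitary (5.73%) and 0 of 49 in the posterior pituitary (3.09%). The 4 lay 1 each at Abca8b, Abcc12, Abcg1 and Abcg4. Abcc4 gained 4 peaks in the cerebellum, 4 in the anterior and 7 in the posterior pituitary, and Abcg2 gained 3, 2 and 4. The peak lists differed in length: the WT libraries had 26394 and 24020 distinct peaks in the cerebellum, 36860 and 45040 in the anterior and 21050 and 20634 in the posterior pituitary, and the stabilized ones 33514 and 31669, 40071 and 42621, and 28926 and 38583. The part of list length in the gains was not tested.

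Peaks that mark WT cerebellum ECs, found in both of its libraries and in no WT pituitary library, numbered 2202 in all and 7 at members: 3 at Abcc4, 2 at Abcg2 and 1 each at Abcc5 and Abcc6. With the RefSeq gene body counted there was 1 more, at Abcb1a. Of all 2202, 24.2% were in both stabilized anterior pituitary libraries and 32.7% in both stabilized posterior ones. Of the 7 at members, 4 were found in each. A word ATCAAAG or TTCAAAG was in the 300 bases at the summit of 34.7% of the 2202 and of 4 of the 7. These windows lie at the WT cerebellum summits, chr6:58623581 and chr6:58646534 for Abcg2, and there differ from those printed. Each Abcg2 window at these summits held 1 word, TTCAAAG.

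At the Abcb1a peak shown above (chr5:8590282-8590889), the WT cerebellum libraries had fold enrichments of 10.4 and 9.18 and the stabilized ones 15.6 and 12.9. No WT pituitary library had a peak there, while the stabilized anterior pituitary had 8.67 and 9.96 and the stabilized posterior pituitary 9.02 and 7.58. The gene that GENCODE places there is Rundc3b, so the peak can be given to Abcb1a by the RefSeq model alone. At the RefSeq start of Abcb1a a peak was in both libraries of WT and of stabilized cerebellum ECs, in 1 of 2 WT and both stabilized anterior pituitary libraries, and in 0 of 2 WT and 1 of 2 stabilized posterior ones. At the GENCODE start, WT cerebellum and WT posterior pituitary ECs had none, WT anterior pituitary ECs had 5.02 and 4.83, and each stabilized library had one.

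The upstream Abcg2 peak (chr6:58623119-58623789) and the downstream one (chr6:58646405-58647011) were in all cerebellum libraries, in no WT pituitary library and in all 4 stabilized pituitary libraries. The upstream peak stood at 7.5 and 8.8 in the stabilized anterior and 4.8 and 5.6 in the posterior pituitary. Chromatin was thus gained at Abcg2 in both lobes, and its RNA was called in the posterior lobe. The Abcc4 peak shown (chr14:118566225-118566637) stood at 3.20 and 3.64 in WT cerebellum, 0 in all WT pituitary libraries, 10.3 and 10.3 in the stabilized anterior and 6.51 and 6.53 in the stabilized posterior pituitary, where Abcc4 RNA was not called. The Abcc6 peak (chr7:46013080-46013966) stood at 13.3 and 15.2 in WT cerebellum, was in 1 of 2 WT anterior and no WT posterior pituitary library, and stood at 13.7 and 15.4 in the stabilized anterior and 11.5 and 11.2 in the stabilized posterior pituitary. The peak at the Abcc6 start itself (chr7:46030111-46030497) was in the cerebellum libraries of both genotypes and in none of the 8 pituitary libraries.

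**Figure D5:**
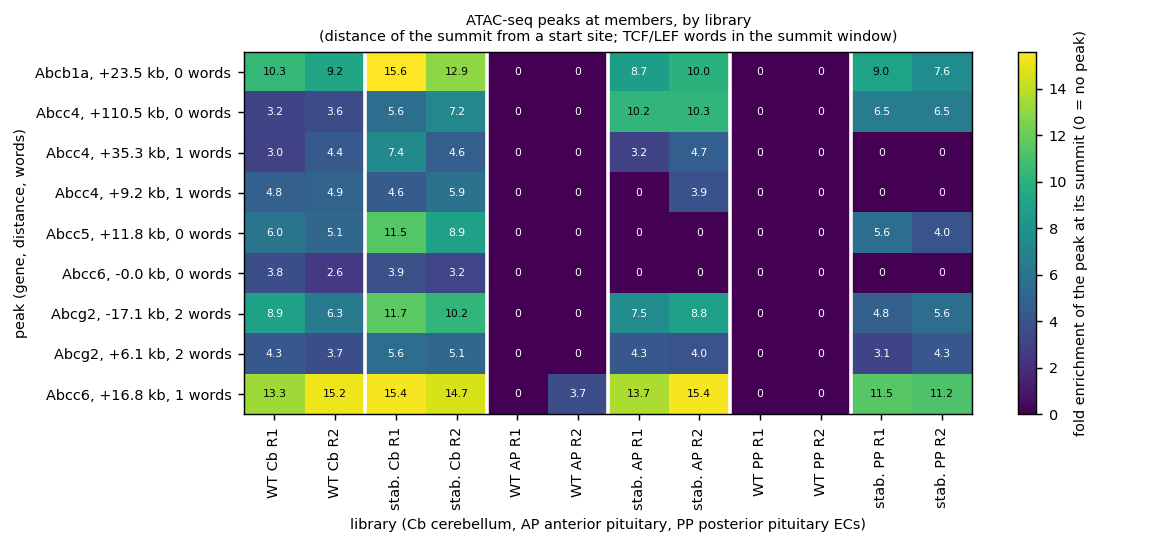
Fold enrichment of 9 ATAC-seq peaks at members (rows, with the distance of the peak from the nearest start and the number of TCF/LEF words in its 300-base window) in the 12 EC libraries (columns); 0 means no peak. The WT pituitary columns are at 0 but for 1 anterior library at Abcc6, and 6 of the rows carry values in both stabilized posterior pituitary libraries.

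A peak at a start is a different measure from a gained peak: 27 to 33 of the 49 members had a peak within 1 kb of a start in both libraries of a group, 28 in WT and 28 in stabilized cerebellum ECs, 33 and 30 in the anterior and 27 and 28 in the posterior pituitary.

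Other genes of the same pathways came from 4 lists: 3 family members with other symbols, 13 nuclear receptors and factors that regulate ABC genes, 11 sterol carriers and partners and 8 partners of organelle ABC proteins. Of these 2, 11, 10 and 7 were tested in sorted ECs. In stabilized against WT sorted ECs 1 gene was called, Lrp1, a receptor for lipoproteins, which was higher in the anterior pituitary (log2 fold change 2.48, SE 0.42, edgeR adjusted p = 0.0211), where 0.441% of all genes were. The microglia and macrophage markers were higher in the same libraries, at the values given above, and their part was not tested. In stabilized cortex bound RNA Nr1h2 (the sterol sensor LXR beta), Nfe2l2 (the stress factor NRF2) and Pltp (a phospholipid carrier) were higher, and in choroid plexus bound RNA none was called. Between WT cerebellum and anterior pituitary ECs, Lrp1 and Pltp were higher and Apoe, the HDL receptor Scarb1 and the ubiquitin ligase Mylip were lower, with 10 of the 11 sterol genes tested. Scarb1 and Pltp were higher in ECs than in parenchyma in all 3 tissues. The peptide transporters Tap1 and Tap2, family members named otherwise, were higher in anterior pituitary ECs than in parenchyma and in cortex bound RNA than in input.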

How the data were processed

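RNA was measured in 40 libraries and accessible chromatin in 12, in groups of 2. Per the labels, the deposited RNA tables hold estimated counts, TPM and effective lengths per transcript from Salmon 0.10.2 on a GRCm38 transcriptome, 1 table per library, from amplified cDNA and single reads of 75 bases. The deposited peak lists hold the fold enrichment ratio and −log10 q that MACS2 2.1.1.20160309 gave each library after Bowtie2 2.3.2 alignment. The authors' notes also name kallisto 0.44.0.

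Counts and TPM were summed per gene, and rounded counts went into edgeR 4.0.16 in R 4.3.3 (TMM, filterByExpr, quasi-likelihood, Benjamini-Hochberg over all genes). Separate fits held the ECs, the ECs with parenchyma, the bound RNA, and the bound RNA with input. Folds against groups at 0 counts used a floor of 3 counts per library. Ratios against 1 or 2 counts carry an exact 95% Poisson interval, and both cover counting error only. Gene bodies came from GENCODE M21 and promoter windows (250 bases before to 50 after a start) from RefSeq, GRCm38.p6. Alternatives were RLE scaling, DESeq2 1.42.0, all genes kept whatever their counts, a replicate block (for fractions of a tissue, each preparation), a length offset and each library left out. The edgeR script was tested on simulated data.

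Named were the pumps Abcb1a, Abcb1b, Abcg2, Abcc1, Abcc4 and Abcc5, with Abcc6, every called member, with full values for up to 5 with the largest change, and the highest member of each role in each tissue. Some of these are not reported here by name, though counts include them. The members, roles and lists were chosen with earlier results of these data known.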

Additional observations from a re-analysis of the deposited data

Results flagged for a closer look

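No group held the 4 samples that a test for outlying libraries needs. In 6 of the members reported here both stabilized libraries lay on one side of both WT libraries in cerebellum ECs and on the other side in anterior pituitary ECs. These members were listed because of that order, and the share of all genes with it was not counted. These differences between tissues were not tested. The log2 fold change of stabilized over WT, given for the cerebellum and then the anterior pituitary, was -0.58 and 0.51 for Abca3, a phospholipid transporter of lung surfactant, -2.22 and 10.28 for Abca9 and -3.70 and 2.08 for Abcb8. It was 0.69 and -0.43 for Abcd3, 0.52 and -0.29 for Abcf1 and 0.45 and -0.17 for Abcf3. In the posterior pituitary, too, Abca3 (0.38), Abca9 (4.38) and Abcf1 (-0.99) lay opposite to the cerebellum. None of these values passed the edgeR test in its own tissue, and the fitted value of Abca9 in the anterior pituitary rests on 1 count in the WT libraries and is no bound.

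The stabilized choroid plexus input entered no comparison of genotypes. Abcb1a stood there at 49.9 and 37.8 CPM (mean 43.84) against 4.40 and 7.35 in the WT input, and Abcb1b at 1.94 and 1.63 CPM (mean 1.785) against 0.567 and 0.804. These 2 were listed because each stabilized library lay more than 2-fold above each WT library, so that order was fixed by the choice. Abcg2, at 32.2 and 21.8 against 11.9 and 12.5 CPM, missed this rule, and both stabilized libraries lay below the WT ones for Abcc1 and Abcc4. The share of all genes that meet the rule was not counted, and no test was run.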

How the results depend on the processing

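Of 72 pairs of a member and a comparison that were called, 39 were called under every alternative and 0 reversed. RLE scaling kept 71, DESeq2 71, no filter on low counts 70, the replicate block 67 and the length offset 46, and single libraries left out kept 236 of 288. The one reversal among pairs not called was Abcb1b between WT cerebellum and anterior pituitary. Its log2 fold change was -0.19 in the edgeR fit on all libraries and between -1.19 and 9.14 with 1 library left out. The highest was without anterior pituitary replicate 2, which leaves that group at 0 counts. No set of replicate numbers correlated above 0.1 in every pair, so the numbers of different tissues or genotypes were not taken as pairs. Same-numbered WT fractions of 1 tissue (ECs and parenchyma, bound and input) may share a preparation, as the methods describe, though the labels do not say so, and their correlations lay between -0.0038 and 0.0895. The calls between them that the block ended stand beside those results. With the replicate block the calls were 1 between the pituitary lobes, 2 for stabilized anterior pituitary and 1 for stabilized cortex. Over all genes the block called 74 higher and 147 lower between the lobes and 107 and 10 in anterior pituitary, of 17915. In cortex it called 506 and 382 of 16775. With the length offset they were 0 between the lobes, 0 and 0 for stabilized anterior and posterior pituitary, 1 for stabilized choroid plexus and 2 for the difference between choroid plexus and cortex responses, where RLE scaling gave 1. DESeq2 called 2 in stabilized cerebellum, 4 in anterior pituitary, 2 for the difference between lobes, 14 and 14 for cerebellum and anterior pituitary ECs against parenchyma, 5 in cortex, 7 in choroid plexus and 5 for their difference. With no filter on low counts the calls were 1, 3, 2, 12 (cerebellum against parenchyma), 6, 6 and 6 in that order. Over all genes DESeq2 called 1400 higher and 2653 lower of 49585 in cerebellum ECs against parenchyma, and 1852 and 2601 in anterior ones. Without the filter the cerebellum counts were 1261 and 2084 of 29276. They were 114 and 455 in stabilized cerebellum and 187 and 221 for the difference between lobes, of 25311. For choroid plexus minus cortex they were 599 and 771 of 26355. The cause of the differences between settings was not tested.

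Leaving out 1 library moved the calls to 1 to 2 between the lobes, 0 to 2 in stabilized cerebellum, 0 to 2 in anterior and 2 to 6 in posterior pituitary, 0 to 1 for their difference, 7 to 11 for posterior ECs against parenchyma, 0 to 4 in stabilized cortex, 0 to 6 for choroid plexus minus cortex and 3 to 6 for choroid plexus bound against input. Gained peaks at members, where each library left out removes a condition of a gain, were 19 to 24 in the cerebellum, 10 to 23 in the anterior and 34 to 74 in the posterior pituitary. Where peaks had to exceed 4-fold enrichment and a −log10 q of 5, they were 5, 3 and 16. With the RefSeq gene bodies, an alternative chosen after seeing the data, they were 17, 9 and 37.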
